A study of Mus musculus with 8 samples.

Results

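The genes that carry a cell through mitosis were followed in CD4+CD25+ regulatory T (Treg) cells that express green fluorescent protein from the Foxp3 locus. A list of 45 genes was drawn up by function and covers mitotic kinases and cyclins, the spindle checkpoint, the kinetochore, the spindle with its motors, chromosome structure and cytokinesis. The deposited microarray values gave a level for 43 of them, among 22180 genes in all. Of the other 2, Ccnb1 had no probe set with a single gene symbol, and the probe set of Ncapg also carries Lcorl. Sgol1 is listed on the array as Sgo1.

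The cells were sorted from thymus and spleen of C57Bl/6J mice to 98% purity. Control mice were heterozygous for the deletion of miR-181a/b-1 (miR181+/-, here HET), so they carry 1 deleted allele, and test mice lacked both copies (miR181-/-, here KO). Mice were 7 to 12 weeks old according to the general methods of the study. HET pool 1 held 3 females and 1 male, HET pool 2 held 4 females and 1 male, and each of the 2 KO pools held 2 females and 1 male. Thymus and spleen of every pool were put on 1 array each, which gives 8 arrays, 4 groups of tissue and genotype, and 2 arrays in a group. With so few pools, p-values measure the spread between these arrays and not between single mice.

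Mitosis is driven by cyclin-dependent kinase 1 with its A and B cyclins. Aurora and Polo kinases, kinesin motors and microtubule-bundling proteins then build the spindle, and a checkpoint holds anaphase back until every kinetochore is attached. Most of these mRNAs are made late in the cell cycle and are scarce in resting cells, which is why Mki67 and Top2a serve as marks of cycling cells in lymphoid tissue. In RNA from bulk cells, a smaller number of cycling cells and less mitotic RNA in each of them cannot be told apart.

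All values are log2 intensities, and 1 unit is a 2-fold change. Olfactory receptor genes, which T cells are not known to use, gave a measure of background: 95% of these 1105 genes had a mean under 4.63, here called the bound. Of the 43 mitosis genes, 29 were over the bound on all 8 arrays, 37 on every thymus array, and 4 (Nek2, Birc5, Kif4 and Hmmr) were under it on every array. All 7 Treg markers were over the bound on both arrays of each group. Xist, which is read from the inactive X chromosome of female cells, went against the sexes on the labels: it was between 3.58 and 4.40 on the 4 HET arrays, under the bound, and between 8.80 and 9.40 on the 4 KO arrays. Uty, Kdm5d and Eif2s3y, all from the Y chromosome, were over the bound on every array. Genotype and the sex makeup of the cells therefore cannot be told apart in any comparison of KO with HET.

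The start sites of mitosis genes are known for a pair of short elements, the CHR (cell cycle genes homology region), through which the DREAM and B-Myb-MuvB complexes act, and the CCAAT box, which binds NF-Y. RefSeq start sites on GRCm38.p6 were found for 40 of the 45 genes, with 43 promoters. The 250 bases before each start were searched on both strands for TTTGAA or TTCGAA (CHR) and for CCAAT. A CHR was present in 19 promoters (44.2%), against 17.1% of all 32851 promoters in the table. A CCAAT box was present in 31 (72.1%, against 33.8%), at least 2 of them in 21 (48.8%, against 10.1%), and both elements in 16 (37.2%, against 6.02%). Within 50 bases of the start, 11 promoters held a CHR (25.6%, against 2.77%), among them those of Cdk1, Kif11, Prc1, Top2a, Ube2c and Cdc20. Neither element was found for 9 genes, namely Anln, Birc5, Kif20b, Mad2l1, Melk, Ndc80, Nuf2, Nusap1 and Sgo1. Such a match describes letters and is not evidence that a factor bound there.

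Large differences described further on were seen for genes with and without both elements, the latter including Nusap1 (neither found) and Bub1 (no CHR found). The promoters of 5 genes are shown, picked among genes with both elements that had some of the larger differences. Each is the 200 bases that end just before the start site, 5′ to 3′ on the strand of the gene, with CHR and CCAAT matches of either strand in capitals, so that a match on the other strand appears as its reverse complement.
Mki67, chr7:135716380-135716579, minus strand: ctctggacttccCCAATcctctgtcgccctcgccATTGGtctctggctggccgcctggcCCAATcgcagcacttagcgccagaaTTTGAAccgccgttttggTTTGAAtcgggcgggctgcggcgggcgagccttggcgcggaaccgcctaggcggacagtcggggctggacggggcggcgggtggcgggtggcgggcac
Top2a, chr11:99024190-99024389, minus strand: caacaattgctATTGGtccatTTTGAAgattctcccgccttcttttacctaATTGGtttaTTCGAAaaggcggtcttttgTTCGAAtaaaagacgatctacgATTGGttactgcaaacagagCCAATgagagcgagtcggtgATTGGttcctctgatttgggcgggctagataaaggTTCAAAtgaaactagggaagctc
Cdk1, chr10:69352913-69353112, minus strand: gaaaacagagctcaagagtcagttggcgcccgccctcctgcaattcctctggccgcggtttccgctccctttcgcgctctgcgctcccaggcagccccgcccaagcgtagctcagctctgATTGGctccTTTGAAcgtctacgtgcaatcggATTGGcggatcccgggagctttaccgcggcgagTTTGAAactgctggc
Kif11, chr19:37376182-37376381, plus strand: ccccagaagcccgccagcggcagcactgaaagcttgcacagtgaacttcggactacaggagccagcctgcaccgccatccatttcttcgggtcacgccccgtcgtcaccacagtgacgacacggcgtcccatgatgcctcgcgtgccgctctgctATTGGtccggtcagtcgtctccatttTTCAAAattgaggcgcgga
Prc1, chr7:80294276-80294475, plus strand: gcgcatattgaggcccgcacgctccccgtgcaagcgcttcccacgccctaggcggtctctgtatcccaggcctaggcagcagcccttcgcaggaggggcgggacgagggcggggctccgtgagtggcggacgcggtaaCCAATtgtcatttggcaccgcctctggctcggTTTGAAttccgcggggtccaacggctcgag
Top2a carries 4 CHR and 5 CCAAT matches in this stretch, and Mki67 carries 2 and 3. The stretches of Kif11 and Prc1 each hold a single CHR, which begins at position -19 in Kif11 and -30 in Prc1, counted back from the start, with a CCAAT box at -45 and -62. Another Prc1 promoter in the search, not shown, had a CCAAT box at -37 and no CHR.

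**Figure D1:**
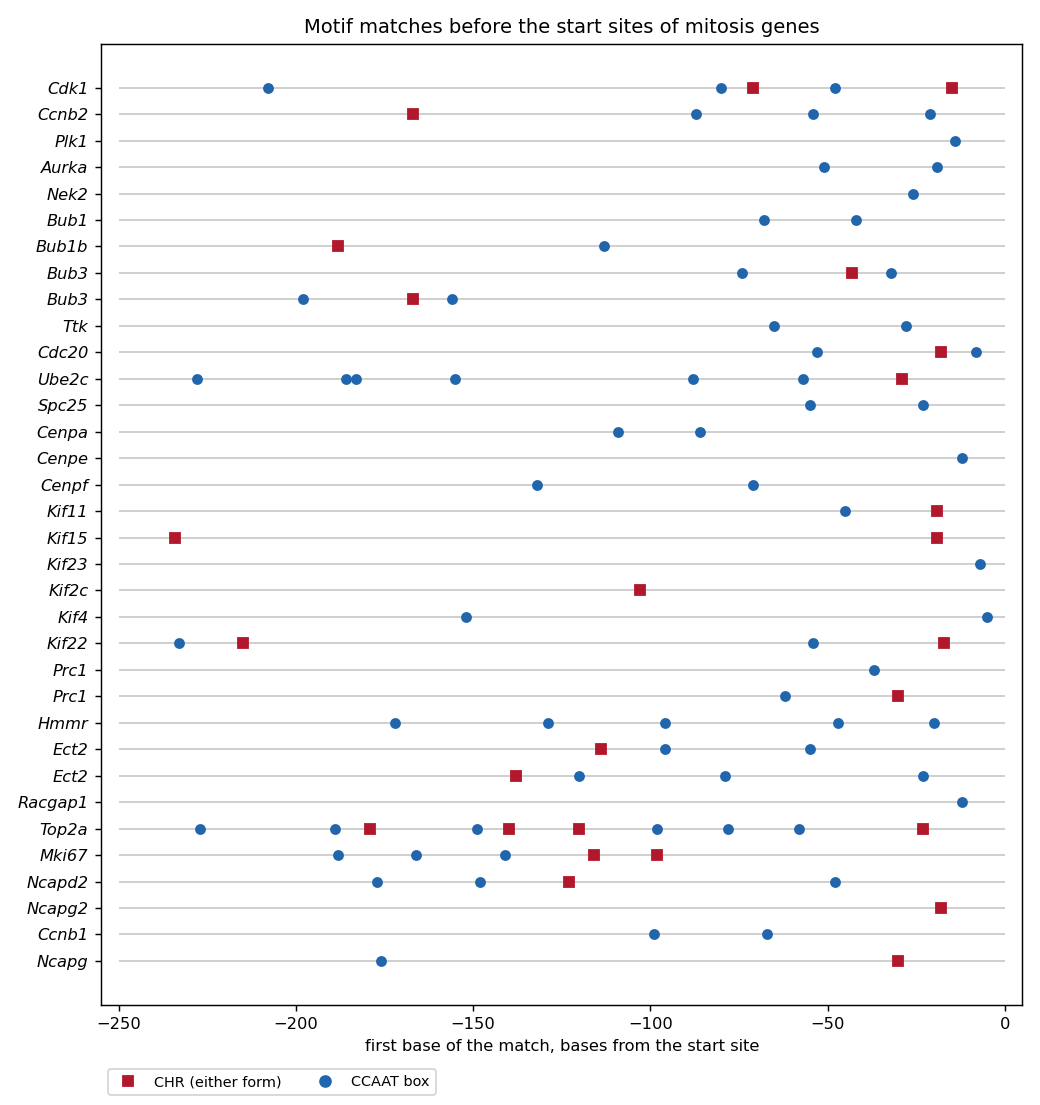
Positions of CHR (red squares) and CCAAT (blue circles) matches in the 34 promoters of mitosis genes that hold at least 1 of them, 1 line for each promoter, with the distance of the match from the start site in bases on the x axis. CHR matches gather in the last 50 bases, where 11 of 43 promoters hold one.

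The first question was how thymic and splenic Treg cells differ in these genes. Mitosis genes were higher in the thymus. Averaged over the genotypes, 30 of 43 passed the test (limma, Benjamini-Hochberg adjusted p under 0.05 over all genes) and all 30 were higher in thymus, where 2.26% of all genes passed in that direction and 3.17% in the other. The median difference was 0.66, against 0.02 over all genes, and it was positive for 42 of 43, with Bub3 as the exception. All 4 thymus arrays lay above all 4 spleen arrays for 30 genes (6.19% of all genes). The same 43 genes had a median difference of 0.82 in HET pool 1, 0.70 in HET pool 2, 0.73 in KO pool 1 and 0.48 in KO pool 2. Thymus was higher than spleen in each of the 4 pools for 39 genes (14.8% of all genes), the others being Bub3, Cdc20, Ndc80 and Cenpa. With any 1 array left out, the averaged median lay between 0.57 and 0.76, and 42 of 43 genes were positive.

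**Figure D2:**
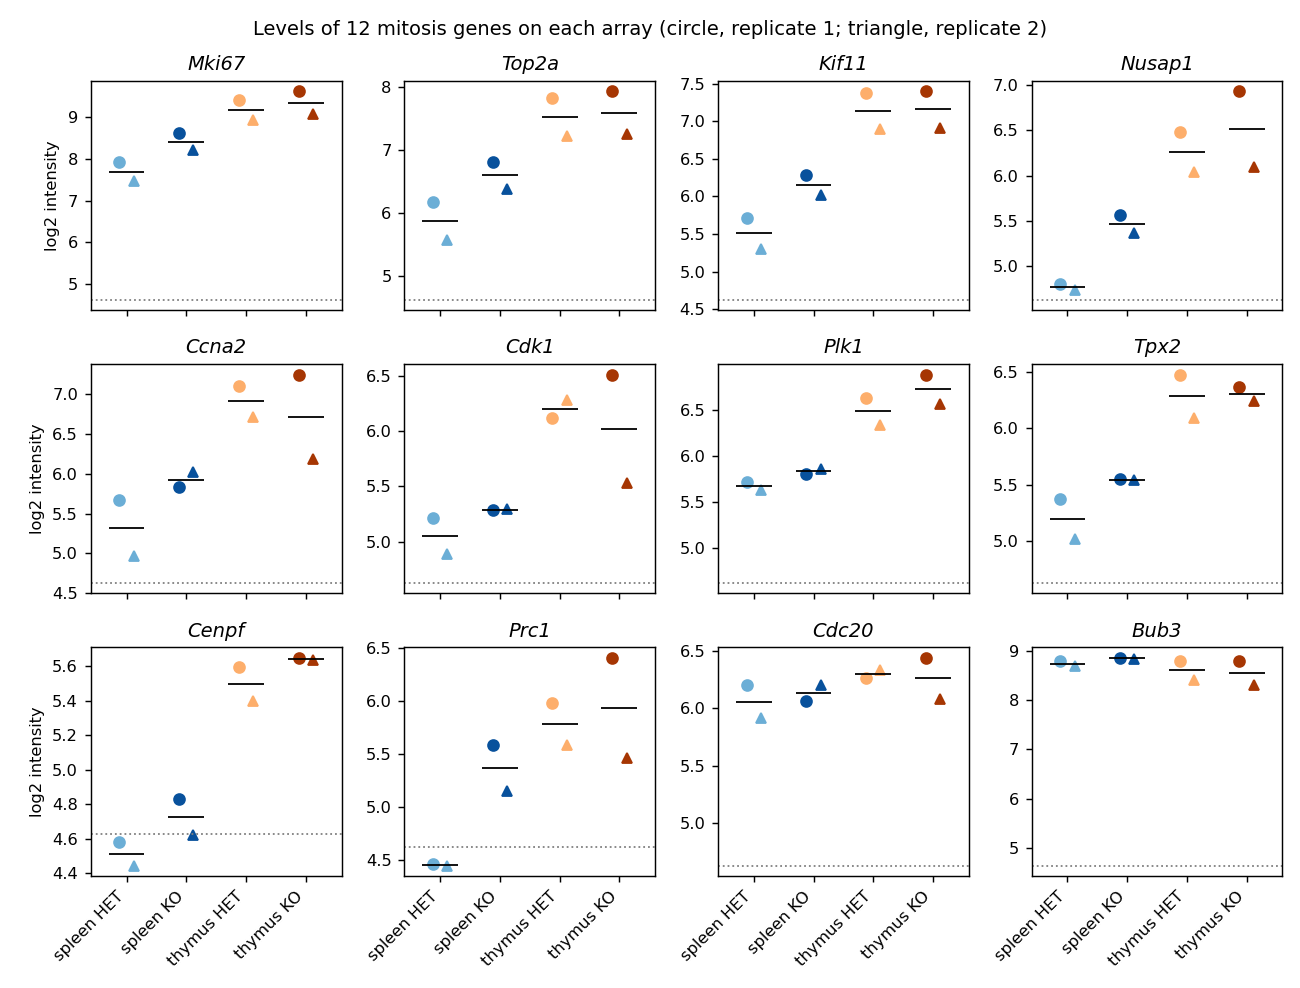
Level of 12 mitosis genes on each of the 8 arrays in log2 intensity, with circles for replicate 1, triangles for replicate 2, a line at each group mean, and the dotted line at the bound of 4.63. Thymus arrays lie above spleen arrays for the first 9 genes, the lower thymus KO array of Prc1 falls under an array of spleen KO, and Cdc20 and Bub3 overlap between tissues.

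Within HET, 18 of 43 genes were higher in thymus (0.618% of all genes), with a median of 0.77, and within KO 6 were (0.744%), with a median of 0.59. The 6 were Cenpf, Ect2, Kif11, Nusap1, Plk1 and Tpx2, and all of them also passed in HET. Thymus and spleen of a pool came from the same mice, and with the mouse pool as a block the counts were 25 in HET (0.839% of all genes) and 15 in KO (0.983%). The genes added in KO included Mki67, Top2a, Bub1 and Ccnb2. The smaller count in KO is not shown to be a smaller difference, since the interaction of tissue and genotype passed for 0 of 43 genes. Across the 43 genes the differences in HET and in KO, which share no array, had r = 0.78 and rho = 0.75 as a description. Single arrays moved both medians. In HET the median was 0.59 without thymus HET replicate 1 and 0.92 without thymus HET replicate 2. It was 0.85 without spleen HET replicate 1 and 0.64 without spleen HET replicate 2. In KO it was 0.36 without thymus KO replicate 1 and 0.81 without thymus KO replicate 2. It was 0.70 without spleen KO replicate 1 and 0.47 without spleen KO replicate 2. Without any 1 HET array fewer genes passed in HET, both in the list and over all genes. The same held in KO without thymus KO replicate 1 or either spleen KO array.

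Cyclins and kinases came first in the order of events, and 5 of 7 were higher in thymus (median 0.78). Cdk1, the kinase that triggers entry into mitosis, read 6.11 and 6.29 in thymus HET, 6.51 and 5.53 in thymus KO, 5.22 and 4.89 in spleen HET, and 5.29 and 5.29 in spleen KO. Its lowest thymus array was above its highest spleen array, and the difference was 0.94 (95% interval 0.56 to 1.32, adjusted p = 0.00922). Ccna2, the cyclin of S phase and early mitosis, differed by 1.20 (0.73 to 1.66), with thymus levels from 6.19 to 7.25 and spleen levels from 4.96 to 6.02. Ccnb2, a partner of Cdk1, was at 7.18 and 6.66 in thymus HET, 7.49 and 6.78 in thymus KO, 6.28 and 5.86 in spleen HET, and 6.54 and 6.30 in spleen KO. The groups of the 2 tissues did not overlap, with a difference of 0.78 (0.42 to 1.15).

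Plk1, the Polo kinase of centrosome maturation and mitotic exit, was higher in thymus in both genotypes. Its arrays read 6.63 and 6.33 in thymus HET, 6.88 and 6.56 in thymus KO, 5.72 and 5.63 in spleen HET, and 5.80 and 5.86 in spleen KO. Thymus was higher by 0.81 in HET and by 0.89 in KO, both past the test. Aurka, the kinase of spindle poles, differed by 0.41 (0.20 to 0.62). Melk had a difference of 0.43 that did not pass, and Nek2, which splits centrosomes, did not pass and was under the bound throughout.

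The spindle checkpoint was divided. Bub1, a kinase that sits at unattached kinetochores, read 5.08 and 4.78 in thymus HET and 5.60 and 4.96 in thymus KO, and all 4 of its spleen arrays (3.61 to 4.50) were under the bound. With spleen set at the bound, thymus was higher by at least 0.30 in HET and at least 0.65 in KO, while the measured difference over both was 1.02 (adjusted p = 0.00234). Bub1b, the checkpoint inhibitor also called BubR1, was higher by 0.64 (0.39 to 0.89). Ttk, the Mps1 kinase, was under the bound on all 4 spleen arrays, at least 0.17 below thymus in HET and at least 0.28 in KO, and did not pass (adjusted p = 0.0538). Mad2l1, which binds Cdc20 to hold anaphase back, had 0.24.

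Bub3, the partner of Bub1 and Bub1b, was the only measured gene of the list with a negative averaged difference. It read 8.80 and 8.42 in thymus HET, 8.79 and 8.32 in thymus KO, 8.79 and 8.70 in spleen HET, and 8.87 and 8.84 in spleen KO. The tissues overlapped, and the difference was -0.22 (-0.48 to 0.05, adjusted p = 0.341). Bub3 also takes part in work outside mitosis and was well over the bound in all groups.

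At anaphase onset, Ube2c, the ubiquitin-conjugating enzyme of the anaphase-promoting complex, was higher in thymus and its activator Cdc20 did not pass. Ube2c read 6.05 and 5.84 in thymus HET, 6.10 and 5.67 in thymus KO, 5.04 and 4.79 in spleen HET, and 5.53 and 5.49 in spleen KO. All thymus arrays were above all spleen arrays, by 1.03 in HET (adjusted p = 0.00944) and by 0.37 in KO (adjusted p = 0.291). Cdc20 read 6.26 and 6.33 in thymus HET, 6.44 and 6.08 in thymus KO, 6.20 and 5.91 in spleen HET, and 6.06 and 6.20 in spleen KO. Its arrays overlapped between tissues, and the difference was 0.18 (-0.06 to 0.42).

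In the chromosomal passenger complex, which corrects faulty attachments and later guides cytokinesis, 1 of 3 genes passed. Aurkb, its kinase, read 5.64 and 5.70 in thymus HET, 5.64 and 5.33 in thymus KO, 5.05 and 4.61 in spleen HET, and 5.15 and 4.73 in spleen KO. The tissues did not overlap, with a difference of 0.69 (0.41 to 0.98, adjusted p = 0.0098). Incenp, the scaffold, read 6.50 and 6.25 in thymus HET, 6.82 and 6.40 in thymus KO, 6.40 and 6.17 in spleen HET, and 6.48 and 6.31 in spleen KO, which overlap, and differed by 0.15 (-0.10 to 0.41). Birc5, or survivin, stayed under the bound with values from 3.38 to 4.57, so no fold is given.

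Of the 7 kinetochore and centromere genes, 4 were higher in thymus (Cenpf, Cenpe, Nuf2 and Spc25). Cenpf, a large protein of the outer kinetochore that builds up in G2, had the smallest adjusted p of the list (0.000159). It read 5.60 and 5.40 in thymus HET, 5.65 and 5.64 in thymus KO, 4.58 and 4.44 in spleen HET, and 4.83 and 4.62 in spleen KO. Both spleen HET arrays and one spleen KO array were under the bound, so the difference in HET was at least 0.87, and the measured average was 0.95 (0.74 to 1.16).

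Cenpe, the kinetochore motor, differed by 0.79 (0.50 to 1.09), and Nuf2, a subunit of the Ndc80 complex, by 0.77 (0.46 to 1.08). Spc25, of the same complex, was under the bound in spleen and higher in thymus by at least 0.18 in HET and at least 0.02 in KO. Ndc80 itself read 7.33 and 6.59 in thymus HET, 7.29 and 6.11 in thymus KO, 6.67 and 6.22 in spleen HET, and 6.63 and 6.33 in spleen KO. Here the arrays of a thymus group lay further apart than the tissues did, and the difference of 0.37 (-0.15 to 0.88) did not pass. Cenpa, the histone H3 variant of centromeres, had 0.11, and Sgo1, the protector of centromeric cohesion, was over the bound on 1 thymus array alone and did not pass (adjusted p = 0.0545).

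Kinesin motors held the largest called difference together with Top2a: 6 of 8 were higher in thymus, with Kif20b and Kif4 the exceptions. Kif11, the motor that pushes spindle poles apart, read 7.37 and 6.90 in thymus HET, 7.40 and 6.92 in thymus KO, 5.71 and 5.31 in spleen HET, and 6.28 and 6.02 in spleen KO. All thymus arrays were above all spleen arrays, and the difference was 1.32 (0.99 to 1.64, adjusted p = 0.000363), or 2.49-fold. It was 1.63 in HET and 1.00 in KO.

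Kif23, the motor of the central spindle, read 6.01 and 6.02 in thymus HET, 6.32 and 5.56 in thymus KO, 4.99 and 4.95 in spleen HET, and 5.17 and 5.04 in spleen KO. The tissues did not overlap, and thymus was higher by 0.93 (0.63 to 1.24). Kif15, which can share the work of Kif11, differed by 0.89, Kif22, a chromosome arm motor, by 0.66, Kif20a, a motor of the midzone, by 0.66, and Kif2c, a microtubule depolymerase, by 0.65. Kif20b had 0.32 (adjusted p = 0.107), and Kif4 stayed under the bound.

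All 4 spindle assembly genes passed. Tpx2, the activator of Aurora A, read 6.48 and 6.10 in thymus HET, 6.37 and 6.25 in thymus KO, 5.37 and 5.01 in spleen HET, and 5.55 and 5.54 in spleen KO. The tissues were separate by 0.93 (0.68 to 1.18, adjusted p = 0.00068). Nusap1, a protein that bundles spindle microtubules, read 6.48 and 6.04 in thymus HET, 6.93 and 6.10 in thymus KO, 4.81 and 4.74 in spleen HET, and 5.56 and 5.36 in spleen KO. Again no spleen array reached a thymus array, with a difference of 1.27 (0.92 to 1.63).

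Prc1, which links antiparallel microtubules at the midzone, read 5.98 and 5.59 in thymus HET, 6.41 and 5.47 in thymus KO, 4.47 and 4.45 in spleen HET, and 5.58 and 5.16 in spleen KO. In HET both spleen arrays were under the bound and thymus was higher by at least 1.15. In KO the arrays of the tissues overlapped and the difference of 0.57 did not pass (adjusted p = 0.316). Hmmr, a spindle pole protein, passed (adjusted p = 0.0121) but lay under the bound on all arrays, so no fold is given.

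The 3 cytokinesis genes passed. Ect2, the exchange factor that activates RhoA at the furrow, read 6.37 and 6.20 in thymus HET, 6.15 and 6.31 in thymus KO, 5.72 and 5.32 in spleen HET, and 5.31 and 5.52 in spleen KO. Every thymus array exceeded every spleen array, by 0.77 in HET and 0.82 in KO, both past the test. Anln, the furrow scaffold anillin, read 5.62 and 5.82 in thymus HET, 5.97 and 5.42 in thymus KO, 4.77 and 4.94 in spleen HET, and 5.06 and 5.07 in spleen KO, separate by 0.75 (0.48 to 1.01). Racgap1, the partner of Kif23 in centralspindlin, read 6.57 and 6.34 in thymus HET, 6.81 and 6.42 in thymus KO, 5.82 and 5.79 in spleen HET, and 6.39 and 6.28 in spleen KO. A spleen KO array exceeded the lower thymus HET array, and the averaged difference was 0.46 (0.23 to 0.70, adjusted p = 0.0296).

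The 4 genes of chromosome structure passed as well. Mki67, which coats mitotic chromosomes, read 9.42 and 8.92 in thymus HET, 9.61 and 9.06 in thymus KO, 7.92 and 7.46 in spleen HET, and 8.61 and 8.21 in spleen KO. The groups stood in the order spleen HET, spleen KO, thymus HET and thymus KO, with an overlap only between the thymus groups. Thymus was higher by 1.20 (0.85 to 1.56, adjusted p = 0.00127), or 2.31-fold.

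Top2a, the topoisomerase that untangles sister chromatids, read 7.82 and 7.22 in thymus HET, 7.93 and 7.26 in thymus KO, 6.18 and 5.57 in spleen HET, and 6.81 and 6.38 in spleen KO. Its order of groups was that of Mki67, and the difference was 1.32 (0.90 to 1.74, adjusted p = 0.00205), or 2.50-fold. The condensin subunits Ncapd2 (condensin I) and Ncapg2 (condensin II) differed by 0.58 and 0.79.

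**Figure D3:**
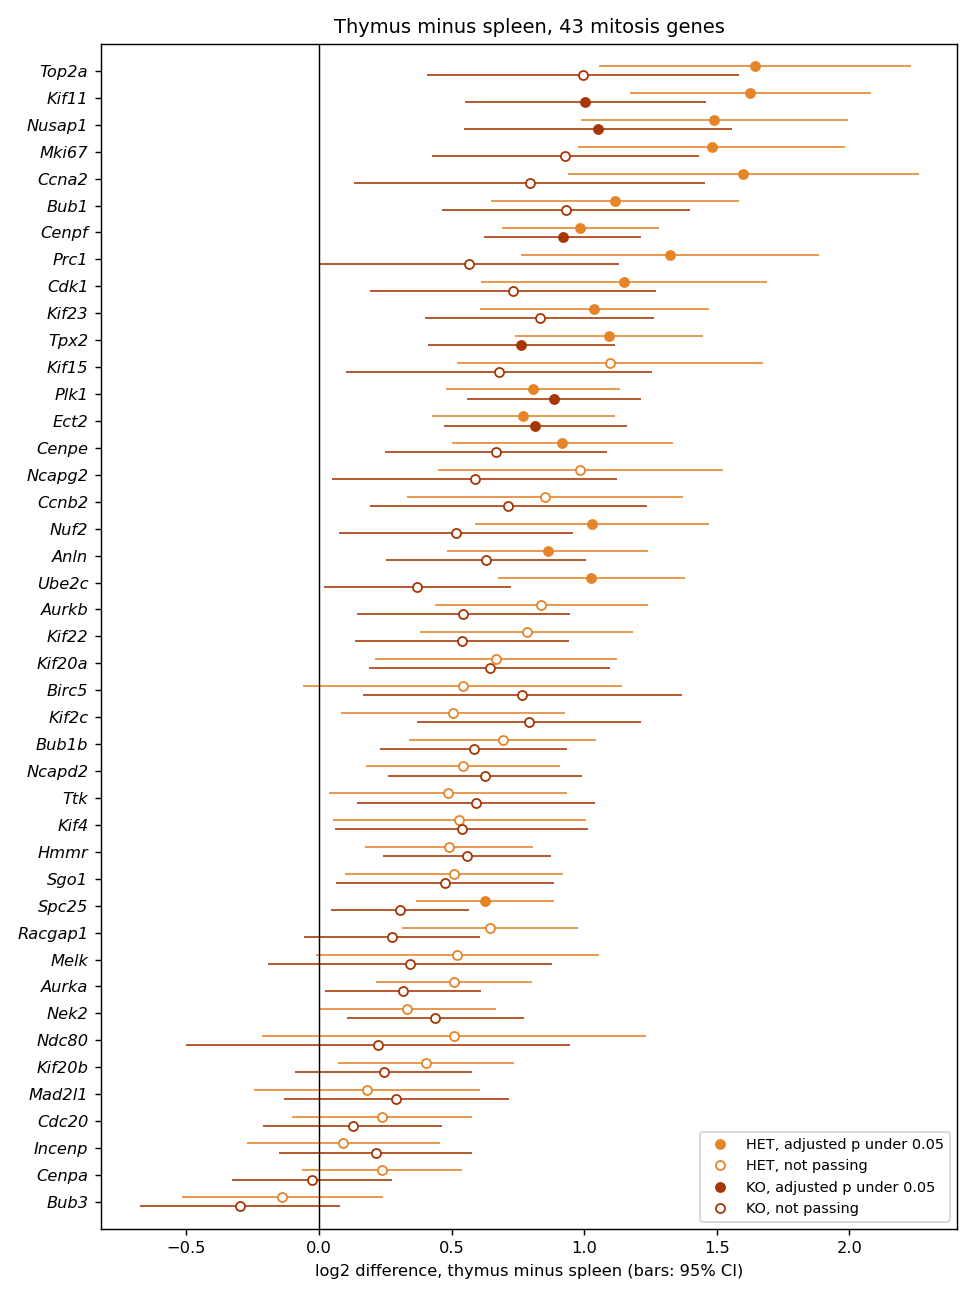
Difference thymus minus spleen in log2 units for the 43 mitosis genes in HET (orange) and KO (brown), ordered by the averaged difference, with 95% intervals from limma and filled points for adjusted p under 0.05. Filled points number 18 in HET and 6 in KO, and Bub3 is negative in both genotypes.

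Further genes of mitosis that were not on the list also leaned to the thymus: of 73 measured, 28 were higher and 0 lower (averaged over genotypes), with a median of 0.38. Over all genes 2.26% passed as higher and 3.17% as lower, the shares to set beside each list count that follows. Those with the smallest p included Ncaph, a condensin subunit (1.23), Knl1, the kinetochore scaffold (1.07), Spdl1, which recruits dynein to kinetochores (0.71), and the passenger subunit Cdca8 (0.52). In spleen HET both arrays of Ckap2l and Kntc1 were under the bound, and thymus was higher there by at least 0.23 and at least 0.60. Among 22 regulators of mitotic transcription 6 were higher, and the median was 0.05. By sign they did not lean to the thymus, with 12 positive (54.5%, against 54.3% of all genes), though 0 passed as lower. Foxm1, the activator of G2 and M genes, was higher by 0.81 (0.47 to 1.16) and Mybl2, or B-Myb, by 0.41, while E2f8 (1.21) and E2f7 (0.39), which repress transcription, E2f3 (0.61), and the pocket protein Rb1 (0.50) were higher too. Of 19 replication genes 4 were higher (Tk1, Rrm2, Tyms and Uhrf1), with a median of 0.28. None of 16 cell cycle brakes was higher, and Ccng1, a target of p53, was lower (-0.55). Of 15 subunits of the anaphase-promoting complex, Anapc16 was lower (-0.45) and no other passed.

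Markers of double-positive thymocytes moved with the tissue as well. Of 10 measured, 3 passed as higher in thymus, namely Cd8a, Cd24a and Dntt, each under the bound on all 4 spleen arrays. Averaged over genotypes, 2.26% of all genes passed in that direction. Cd24a was higher by at least 0.40 in HET and at least 1.13 in KO. Cd8a was over the bound only in thymus KO, by at least 1.12 over spleen KO, and Dntt only in thymus HET, by at least 0.40 over spleen HET. Their summed linear level was 408 to 439 in thymus HET, 464 to 567 in thymus KO, 332 to 355 in spleen HET and 349 to 387 in spleen KO. Rag2, Arpp21 and Tdrd5 were under the bound in every group. Cd8a was highest on thymus KO replicate 1 (6.22), the array with the highest median level of mitosis genes. Mitosis genes had the higher median on replicate 1 in every group, but the double-positive list, by the centred medians below, did so only in KO. Gene by gene, replicate 1 was higher for 7 of 10 in thymus KO and 4 of 10 in spleen KO. In each HET group it was higher for 2 of 10. With each gene centred on its mean over the arrays, the list median on replicates 1 and 2 was 0.25 and 0.21 in thymus KO. It was -0.14 and -0.17 in spleen KO, 0.09 and 0.13 in thymus HET, and -0.28 and -0.12 in spleen HET. B cell, myeloid and erythroid lists had 1 of 8, 2 of 10 and at most 1 of 3 measured markers over the bound on both arrays of a group. The erythroid list held 9 markers, so most of it was not measured. The part of double-positive thymocytes in the tissue difference was not tested.

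The second question was whether loss of miR-181a/b-1 went with a change in these genes. In splenic Treg cells 0 of 43 mitosis genes passed (limma; 0.00451% of all genes did). An unadjusted p under 0.05 was found for 8, all higher in KO, as for 2% of all genes in that direction. The median difference KO minus HET was 0.19, against 0.00 over all genes, and 39 of 43 were positive. It fell to 0.10 (31 positive) without spleen HET replicate 2 and stood at 0.30 (43 positive) without spleen HET replicate 1. Both KO arrays lay above both HET arrays for 23 genes, where 18.6% of all genes did so. The reverse held for 0, and its share of all genes was not counted. The 8 genes were Prc1 (0.91, 95% interval 0.35 to 1.47), Mki67 (0.72, 0.21 to 1.22), Top2a (0.72, 0.13 to 1.31), Nusap1 (0.69, 0.18 to 1.19), Kif11 (0.64, 0.19 to 1.10), Ube2c (0.60, 0.25 to 0.95), Bub1 (0.53, 0.06 to 1.00) and Racgap1 (0.53, 0.20 to 0.86). The smallest adjusted p among them was 0.944, for Ube2c. For Prc1, with both HET arrays under the bound, KO was higher by at least 0.74, and both Bub1 groups were under it.

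Cdc20, Bub3, Cdk1 and Plk1 had smaller differences in spleen, of 0.08, 0.10, 0.24 and 0.16, and the 4 negative ones were Ect2, Kif4, Nek2 and Kif2c, from -0.10 to -0.07. For 36 of 43 genes the whole interval lay within a 2-fold change in either direction. The other mitosis genes had a median of 0.14 with 59 of 73 positive, and replication genes 0.16 with 18 of 19 positive, and none of either list passed. Immediate early genes, which respond to handling and to activation, had a median of -0.23 in spleen, with 8 of 10 negative and none passing. Their summed linear level was 967 to 976 in spleen KO and 1164 to 1293 in spleen HET. Their part in the splenic values of mitosis genes was not tested.

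In thymic Treg cells 0 of 43 genes passed (0.00451% of all genes) and 0 had an unadjusted p under 0.05 (5.52% of all genes). The median was 0.02, and 25 were positive. KO arrays lay above HET arrays for 1 gene, Cenpf (15% of all genes). They lay below them for 2, Aurkb and Spc25, a direction whose share of all genes was not counted. The median moved with single arrays, to -0.16 without thymus KO replicate 1 and to 0.29 without thymus KO replicate 2. All 43 intervals lay within a 2-fold change in either direction. Mki67 differed by 0.17 (-0.34 to 0.67), Top2a by 0.07 (-0.51 to 0.66), Kif11 by 0.02 (-0.43 to 0.47) and Cdk1 by -0.18 (-0.72 to 0.36).

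Averaged over tissues, 0 genes passed (0.0225% of all genes) and 7 had an unadjusted p under 0.05, all higher in KO (2.67% of all genes). Racgap1 had the smallest adjusted p (0.638), with a difference of 0.34 (0.11 to 0.58). The interaction, taken as KO minus HET in spleen less that in thymus, passed for 0 genes (0% of all genes). Its unadjusted p was under 0.05 for Ube2c alone (0.66), against 1.9% of all genes in that direction. Its median was 0.19 with 32 of 43 positive, and single arrays moved it across 0: it was -0.03 (20 positive) without thymus KO replicate 2 and 0.40 (39 positive) without thymus KO replicate 1. The median was 0.04 without thymus HET replicate 1, 0.34 without thymus HET replicate 2, 0.07 without spleen HET replicate 2 and 0.12 without spleen KO replicate 1. The genotype differences in spleen and thymus across the 43 genes had r = 0.21.

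**Figure D4:**
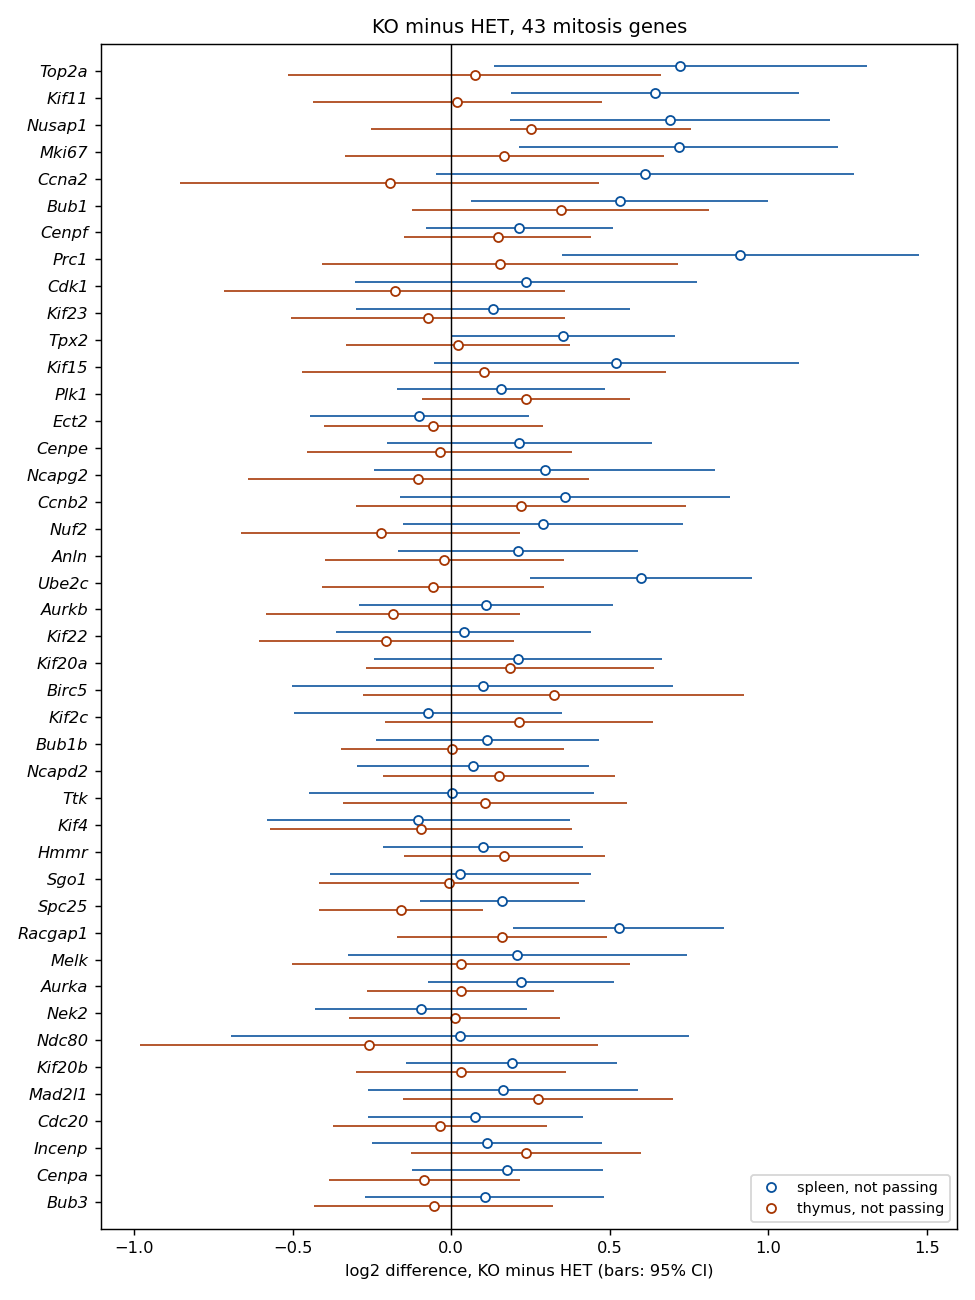
Difference KO minus HET in log2 units for the 43 mitosis genes in spleen (blue) and thymus (brown), in the order of the tissue plot, with 95% intervals from limma. No gene passed the adjusted test, splenic points lie right of 0 for 39 genes, and thymic points lie on both sides.

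Replicates of a group also differed in these genes. The array of replicate 1 read higher than that of replicate 2 in all 4 groups for 28 of 43 genes, where 8.43% of all genes did so. The reverse held for 0 of 43, against 1732 of all 22180 genes. The median of replicate 1 minus replicate 2 was 0.32 in thymus HET, 0.44 in thymus KO, 0.24 in spleen HET and 0.19 in spleen KO, against -0.02 to 0.02 over all genes. The median KO minus HET difference in spleen was 0.19 and that between tissues 0.66. After each gene was centred on its mean over the 8 arrays, the median over the 43 genes was 0.48 and 0.15 in thymus HET, 0.56 and 0.12 in thymus KO, -0.33 and -0.54 in spleen HET, and -0.12 and -0.34 in spleen KO. Every thymus array was above 0 and every spleen array below it. Spleen KO replicate 2 was level with spleen HET replicate 1. Replication genes were higher on replicate 1 for 19 of 19 genes in both thymus groups, 16 in spleen HET and 11 in spleen KO. HET and KO arrays of the same number share only that number on the labels, and what else they share is not given in the sources used here.

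**Figure D5:**
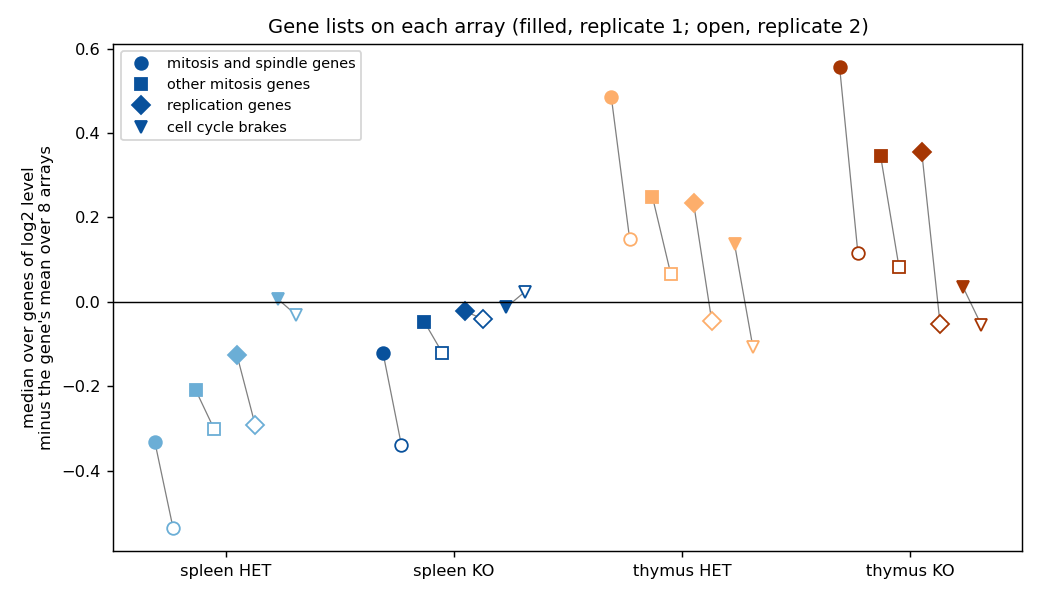
Median over the genes of a list of the log2 level minus the gene's mean over the 8 arrays, by group, with filled symbols for replicate 1, open symbols for replicate 2 and a line joining them. Mitosis and spindle genes (circles) run from -0.54 in spleen HET to 0.56 in thymus KO, and the filled circle is the higher one in each group.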

How the data were processed

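The deposited table holds log2 probe set intensities of 8 Affymetrix arrays, which the authors made with oligo per the submitters' processing notes (no version, and the normalization step is not given in the sources used here). The array medians lie between 4.58 and 4.70. The probe set identifiers belong to another array design than the one the study's methods name, and a figure legend gives larger mouse pools than the labels. Those methods also name a human CD2 reporter for Foxp3 and green fluorescent protein for Rag1, not the Foxp3 reporter given at the opening. Of 41345 probe sets, 23521 had 1 gene symbol in the platform annotation, 1820 had several and 16004 were not listed. The probe set with the highest mean was kept for each of 22180 genes (1082 had more than 1).

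Groups were fitted together with limma 3.58.1 in R 4.3.3 (lmFit and eBayes, no block, residual degrees of freedom 4), with Benjamini-Hochberg adjustment over all genes. The fit was tested on simulated data. Thymus and spleen of a pool come from the same mice according to the labels. Deviations of the paired arrays correlated with r = 0.12 in HET and 0.02 in KO over all genes. The members and gene lists were chosen with earlier results of these data known. Array values are printed for members by a rule: past the threshold with the smallest p, highest or most different in their role, or Mki67, Top2a, Cdk1, Plk1 and Aurkb in any case. Alternatives were a level filter, quantile normalization, trended robust variances, mean of probe sets, array weights, separate fits, blocks and each array left out.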

Additional observations from a re-analysis of the deposited data

How the results depend on the processing

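No member passed in any comparison of KO with HET under any setting tried, including the replicate block on replicate number (0 in spleen, thymus and averaged). That block changed no call there but lowered the smallest adjusted p of the members (limma). It went from 0.944 to 0.217 in spleen, from 0.960 to 0.724 in thymus and from 0.638 to 0.189 averaged. In spleen it was 0.267 with array weights and 0.953 with trended robust variances. On the labels HET and KO arrays share only a number. Deviations of same-numbered HET and KO arrays correlated from -0.05 to 0.21 over all genes, highest between thymus HET and thymus KO. For the 2 tissues of the same pools the values were 0.12 in HET and 0.02 in KO. Mitosis genes are a small part of all genes, so these correlations cannot decide what the number stands for. Leaving out each array in turn moved the splenic KO minus HET median between 0.10 and 0.30, the thymic one between -0.16 and 0.29, the interaction median between -0.03 and 0.40, the thymus minus spleen count between 1 and 18 in HET, between 0 and 8 in KO and between 18 and 34 averaged, and the KO tissue median between 0.36 and 0.81. The KO tissue count, 6 (165 of all genes), was 10 (218) without genes below the median level. It was 15 (218) with the mouse pool as a fixed replicate block and 10 (218) with it as a random block. With the replicate number as a block, chosen after seeing the data, it was 16 (226). The cause of these changes was not tested. All 30 averaged calls were kept with the mouse pool as either block. With a lone array left in a group, its spread is assumed to be that of the others. Precision is limited by 2 arrays in a group, and the bound of 4.63 limits 14 members that fell under it on at least 1 array.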
